A study of Mus musculus with 10 samples.

Results

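The Toll-like receptors of mouse macrophages and their co-receptor Cd14 were compared between Ccr2 KO and control F4/80+ cells sorted from tumours. They were taken by symbol as 10 of the 55359 genes counted, namely the surface group Tlr1, Tlr2, Tlr4, Tlr6 and Cd14 and the endosomal group Tlr3, Tlr7, Tlr8, Tlr9 and Tlr13. All 10 passed the filter on low counts. The KO group held 5 libraries from mice with an RFP allele on both copies of Ccr2 (Ccr2RFP/RFP). The control group held 5 libraries from mice with that allele on 1 copy (Ccr2RFP/+), which the titles call WT although these cells also carry the allele. All mice were male, all received Braf/Mek inhibitors every day up to collection, and all tumours were labelled resistant/rebound. The labels give no ages and do not tie libraries to animals. The p-values therefore describe how these libraries differ among themselves, and that variation may be technical in part. F4/80 is the sort marker that the labels name.

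Toll-like receptors are transmembrane sensors of microbial and host molecules. Those at the cell surface bind lipids and proteins, with Tlr2 pairing with Tlr1 or Tlr6 for bacterial lipopeptides and Tlr4 binding lipopolysaccharide that Cd14 hands over. Those in endosomes bind nucleic acids and need the chaperone Unc93b1 to reach that compartment, and nearly all signal through the adaptor Myd88 to NF-kB, with Tlr3 using Ticam1 instead.

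Counts in genes summed to between 34639808 and 43360206 per library. Ccr2, the chemokine receptor gene carrying the allele, averaged 4.72 ± 1.41 CPM (counts scaled to an equal effective library size) in Ccr2 KO and 119 ± 45.9 in control libraries (SD, n = 5 each). The gated gene Adgre1 (F4/80) was at 1562 to 2020 CPM in Ccr2 KO and 1704 to 1981 CPM in control libraries. Listed marker genes of other cells ranged from near 0 to clearly present. Siglech of plasmacytoid dendritic cells was at most 0.783 CPM in Ccr2 KO and 1.25 CPM in control libraries, and Ly6g of neutrophils at most 0.0439 CPM in Ccr2 KO and 0.321 CPM in control. Csf3r, from the same marker list as Ly6g, was at 75.6 to 129.9 CPM in Ccr2 KO and 145 to 177 CPM in control libraries. Col1a1 of fibroblasts was at 67.3 to 785 CPM in Ccr2 KO and 188 to 542 CPM in control. Of 12 core macrophage markers 1 rose in Ccr2 KO cells, Cd68, as did 1 of 12 tested T and NK cell markers, Cd4. The other 11 T and NK cell markers had log2 fold changes below 0, and the median of that list was −1.19. In that list 3 had an unadjusted p under 0.05 in edgeR, with 3 called by DESeq2 and 1 by limma-voom. Among 4 tested melanoma markers 1 rose, Trpm1, and the other 3 had log2 fold changes below 0. Of all tested genes, 50.5% lay below 0. Of 10 markers of type 2 dendritic cells 1 fell in edgeR, Dpp4, with 4 at an unadjusted p under 0.05, 2 called by DESeq2 and 1 by limma-voom. In that list 7 had log2 fold changes below 0, and the median was −0.97. Among 10 fibroblast and 6 tested endothelial markers 0 passed in edgeR, with 2 each at an unadjusted p under 0.05, 2 and 1 called by DESeq2 and 0 and 0 by limma-voom.

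Control libraries 1 and 2 were unusually alike, as were control 3 and 4, with a median chi-square per gene of 2.79 and 2.72 against 7.07 for the next pair within a group and 0.455 for sampling noise alone. They differed by more than sampling noise and were kept as separate libraries, and the tests were repeated with each pair summed.

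Of the 10 genes, 1 passed the threshold of 0.05 on the adjusted p, which was Tlr1, lower in Ccr2 KO cells. Among all 14374 genes tested, 1.41% passed it, 0.543% as lower and 0.87% as higher in Ccr2 KO cells, by edgeR's quasi-likelihood test with Benjamini-Hochberg adjustment over all genes. Fold changes below 0 on the log2 scale were found for 9 of the 10, against 50.5% of all tested genes. The median log2 fold change of the 10 was −0.27, with −0.27 for the surface group and −0.28 for the endosomal group, against −0.00335 over all tested genes. At an unadjusted p under 0.05 there were 2, Tlr1 and Tlr8, where 15.3% of all genes reached it.

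**Figure D1:**
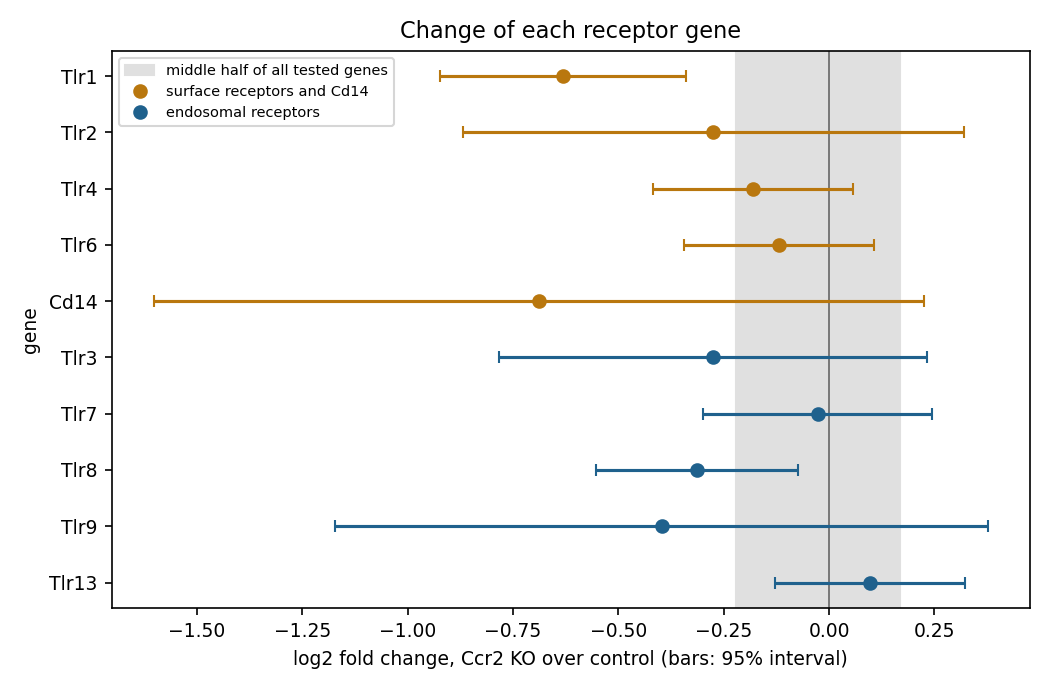
The log2 fold change of each gene, Ccr2 KO over control, is plotted on the horizontal axis with its 95% interval from edgeR (n = 5 libraries each), surface genes in orange and endosomal genes in blue. The grey band holds the middle 50% of all tested genes, from −0.22 to 0.17. The interval of Tlr1 runs from −0.92 to −0.34, and that of Cd14 from −1.60 to 0.22.

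Tlr1, which partners Tlr2 for triacylated lipopeptides, was at 68.1, 93.0, 53.7, 78.7 and 80.8 CPM in Ccr2 KO libraries 1 to 5 and at 108, 126, 117, 120 and 109 CPM in control libraries 1 to 5. Every KO library lay below every control library, which held for 4.7% of all tested genes in either direction. Tlr1 averaged 74.8 ± 14.8 CPM in Ccr2 KO and 116 ± 7.39 CPM in control cells (SD, n = 5 each), 0.646 times the control level. Its log2 fold change was −0.63 (SE 0.13; adjusted p = 0.0458, edgeR's quasi-likelihood test). The gene sat close to the threshold: leaving out any single library other than Ccr2 KO 2 or 3 moved its adjusted p above 0.05, up to 0.124, and summing the alike control pairs gave 0.249. The log2 fold change stayed between −0.71 and −0.53 with 1 library left out.

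Markers of monocytes also differed between the groups. Of 12 classical monocyte markers, 6 fell in Ccr2 KO cells, with the defining gene Ly6c2 at 1.21 to 8.41 CPM in Ccr2 KO and 59.0 to 109 CPM in control libraries. Their mean log2 CPM was 2.97 to 4.65 in Ccr2 KO and 6.28 to 7.20 in control libraries, without overlap. The list holds Ccr2 itself, the gene carrying the allele, which is among the 6 and part of this mean. The fall of Ccr2 cannot be read as a change in monocytes. Among the KO libraries, Ccr2 KO 3 was highest in this mean, at 4.65, and lowest in Tlr1, at 53.7 CPM. Ccr2 KO 4 was lowest in this mean, at 2.97, with Tlr1 at 78.7 CPM. Their summed level was 1760 to 4171 CPM in Ccr2 KO and 2714 to 6537 CPM in control libraries, and most of it was the listed gene Fn1, at 1606 to 4041 CPM in Ccr2 KO and 1450 to 4458 CPM in control libraries. No marker was at 0 in all libraries. Of 12 markers of resident-type macrophages, 5 rose, with sums of 7098 to 10560 CPM in Ccr2 KO and 4664 to 7515 CPM in control libraries. The part of either shift in the Tlr1 result was not tested. In such bulk samples fewer cells of a type and less RNA per cell cannot be told apart.

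Tlr6, the other partner of Tlr2, which serves diacylated lipopeptides, was at 17.4, 18.6, 16.8, 20.2 and 21.9 CPM in Ccr2 KO libraries 1 to 5 and at 19.2, 20.1, 19.1, 22.5 and 22.2 CPM in control libraries 1 to 5. In 3 of the 5 KO libraries it lay below the lowest control, and no KO library lay above the highest. In log2 terms the fold change was −0.12 (95% interval −0.35 to 0.11; adjusted p = 0.602, edgeR).

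Tlr1 and Tlr6 lie beside each other on the minus strand of chromosome 5, Tlr1 at chr5:64924679-64933563 and Tlr6 at chr5:64952031-64960097 (GRCm38, GENCODE M21), with 18467 bases between them. The sequences of both are shown because the genes share coding sequence and reads that match both equally well cannot be assigned. The longest identical run was 229 bases, in exon 4 of 4 of Tlr1 at chr5:64925537-64925765 and exon 2 of 2 of Tlr6 at chr5:64953828-64954056. The capitals mark the identical run and the lower case the 15 bases on each side, read on the minus strand.
Tlr1 run: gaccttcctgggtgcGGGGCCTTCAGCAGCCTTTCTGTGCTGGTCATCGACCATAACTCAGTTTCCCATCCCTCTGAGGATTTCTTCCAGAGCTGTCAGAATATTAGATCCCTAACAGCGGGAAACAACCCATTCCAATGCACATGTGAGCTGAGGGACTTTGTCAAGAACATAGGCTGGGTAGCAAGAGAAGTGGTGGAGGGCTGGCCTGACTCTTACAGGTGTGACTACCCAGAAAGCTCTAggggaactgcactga
Tlr6 run: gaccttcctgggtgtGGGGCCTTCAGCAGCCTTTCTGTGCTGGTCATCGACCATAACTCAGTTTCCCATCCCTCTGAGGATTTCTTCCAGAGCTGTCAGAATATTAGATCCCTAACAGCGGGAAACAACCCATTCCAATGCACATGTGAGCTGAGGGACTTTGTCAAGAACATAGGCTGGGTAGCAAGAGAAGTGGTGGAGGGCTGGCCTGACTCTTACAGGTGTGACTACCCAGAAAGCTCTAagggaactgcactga
Of all 50-base words in the longest protein-coding transcript, 15.3% of those in Tlr1 were also in Tlr6, and 12.6% of those in Tlr6 were in another gene, nearly all of them in Tlr1. With 100-base words the shares were 8.85% and 7.24%, and Tlr2, Tlr3, Tlr4, Tlr7, Tlr8, Tlr9, Tlr13 and Cd14 had none. Multimapping reads were listed as 0 in every library, so the counts do not show how reads matching both genes were treated, and the levels of both are uncertain to that extent.

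The balance of the partners was examined as the ratio of Tlr1 to Tlr6 counts in each library, a comparison chosen after their values were seen. It was 3.91, 5.01, 3.20, 3.89 and 3.68 in Ccr2 KO libraries 1 to 5 and 5.65, 6.25, 6.14, 5.32 and 4.89 in control libraries 1 to 5. In 4 of the 5 KO libraries it lay below the lowest control library, and Ccr2 KO 2 lay just above it. The mean ratio was 3.94 ± 0.665 in Ccr2 KO and 5.65 ± 0.565 in control libraries (SD, n = 5 each), a log2 difference of −0.53 (exact two-sided permutation test, p = 0.0159, and 0.0476 adjusted over the 3 ratios computed). The smallest p that 252 arrangements allow is 0.00794. With the alike control pairs summed the difference was −0.49 (exact permutation p = 0.0714), with fewer arrangements and so a larger smallest possible p.

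Tlr2, the receptor that both partners join, was at 714, 594, 468, 295 and 305 CPM in Ccr2 KO libraries 1 to 5 and at 435, 483, 610, 504 and 841 CPM in control libraries 1 to 5. The groups overlapped, with Ccr2 KO 4 and 5 lowest of all and control 5 highest. That gave a log2 fold change of −0.27 (SE 0.27; adjusted p = 0.656, edgeR), and without Ccr2 KO 4 and 5 it was 0.06. With single libraries left out it ran from −0.47 without Ccr2 KO 1 to −0.08 without control 5. The ratio of Tlr1 to Tlr2 averaged 0.180 ± 0.0817 in Ccr2 KO and 0.214 ± 0.0539 in control libraries (exact permutation p = 0.381).

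Cd14, which captures lipopolysaccharide for Tlr4 and lipopeptides for Tlr2, varied most between libraries. It was at 921, 1079, 886, 254 and 311 CPM in Ccr2 KO libraries 1 to 5 and at 850, 946, 940, 884 and 1945 CPM in control libraries 1 to 5. Ccr2 KO 1 to 3 lay among control 1 to 4 or just above them, Ccr2 KO 4 and 5 lay far below, and control 5 lay far above. The estimated log2 fold change was −0.69 (SE 0.41; adjusted p = 0.450, edgeR), which moved to −0.20 without Ccr2 KO 4 and 5 and to −0.38 without control 5. Neutrophils also carry Cd14 and Tlr2. Of 10 tested neutrophil markers 0 passed in edgeR, with 5 at an unadjusted p under 0.05, 4 called by DESeq2 and 0 by limma-voom. They summed to 116 to 224 CPM in Ccr2 KO and 164 to 651 CPM in control libraries, highest in control 5. Their lowest sum was in Ccr2 KO 2, which was highest in Cd14 among the KO libraries. By mean log2 CPM these markers were instead lowest in Ccr2 KO 5 and 4, at −0.99 and −0.86, and highest in control 5, at 5.04. That mean was 2.66, −0.32 and 2.575 in Ccr2 KO 1 to 3, and 0.27 in control 3, where Cd14 was at 940 CPM. All 10 tested markers had log2 fold changes below 0, with a median of −1.96, where 50.5% of all tested genes lay below 0. The defining gene Ly6g was at 0 in 6 libraries, whereas S100a8 was at 0 to 30.8 CPM in Ccr2 KO and 2.49 to 119 CPM in control libraries. Csf3r was present in all libraries, as given above, also in those where Ly6g was at 0. The monocyte markers, Ccr2 among them, had a mean log2 CPM of 2.97 and 3.32 in Ccr2 KO 4 and 5, the lowest of all libraries. In control 5 that mean was 7.20, the highest. In Ccr2 KO 1 to 3, where Cd14 was near control 1 to 4, that mean was also low, at 3.44, 3.89 and 4.65. The part of these cells in the Cd14 and Tlr2 values was not tested.

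Tlr4 was at 49.4, 47.9, 36.3, 42.7 and 44.5 CPM in Ccr2 KO libraries 1 to 5 and at 51.8, 53.0, 50.6, 53.9 and 40.9 CPM in control libraries 1 to 5. Every KO library lay below 4 of the 5 control libraries, and control 5, the library highest in Cd14 and Tlr2, was lowest among the controls. The log2 fold change was −0.18 (95% interval −0.42 to 0.06; adjusted p = 0.444, edgeR). Ly96, which encodes the MD-2 subunit that binds lipopolysaccharide with Tlr4, had a log2 fold change of −0.12 (adjusted p = 0.725, edgeR).

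**Figure D2:**
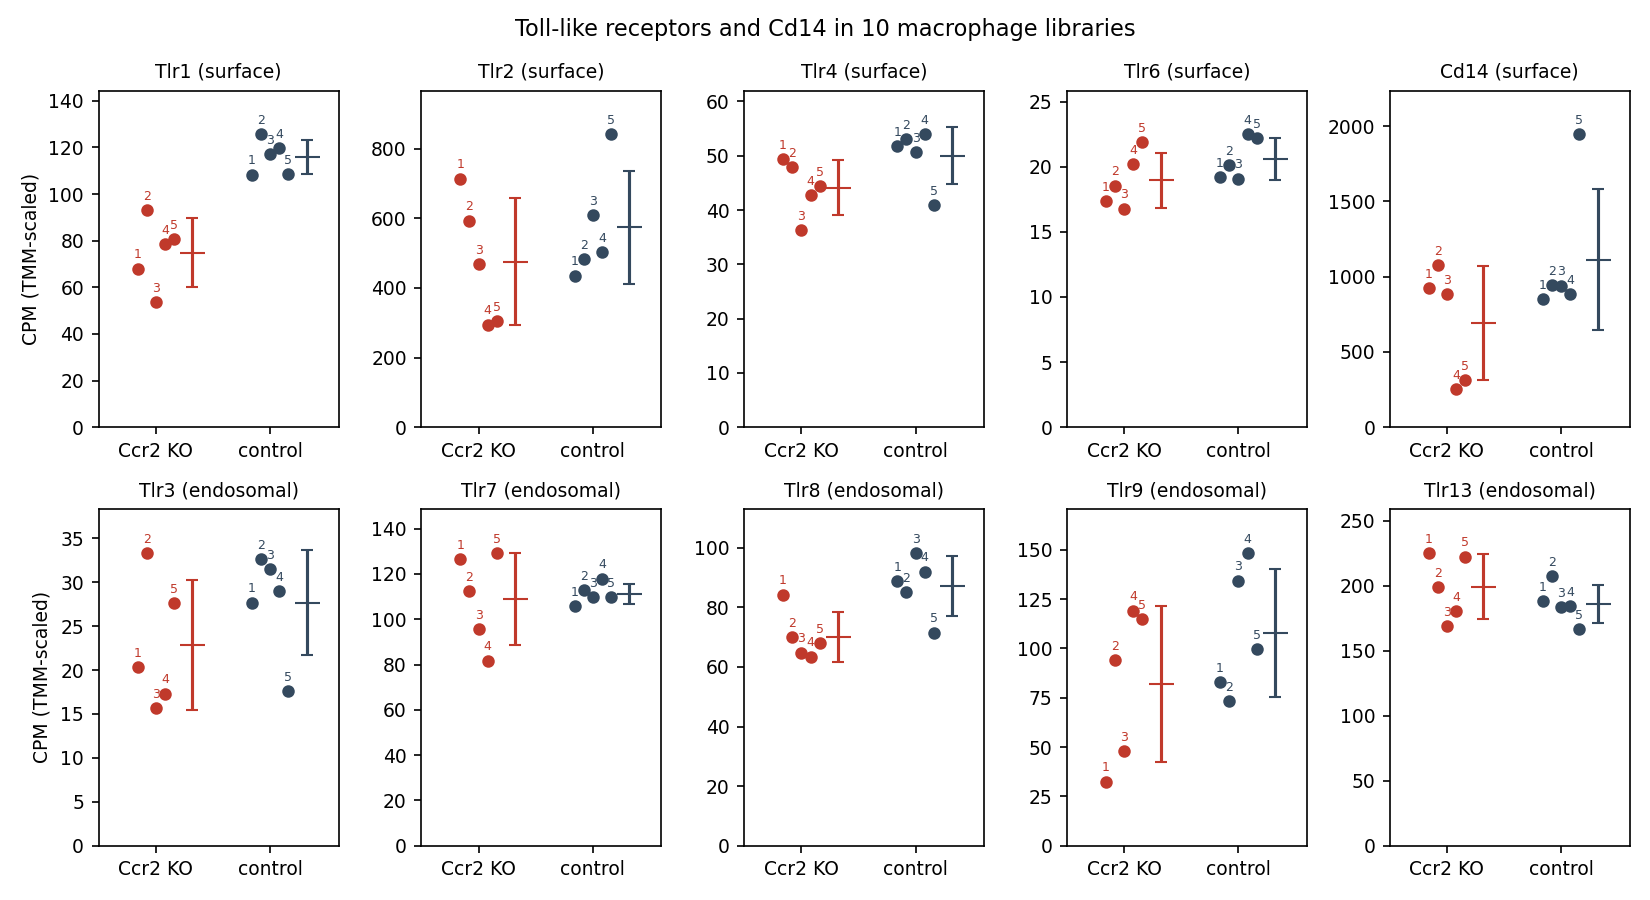
Each panel plots 1 gene, with CPM on the vertical axis, Ccr2 KO libraries left of control libraries, 1 point per library and bars for the mean and SD (n = 5 each). The points of Tlr1 do not overlap between the groups, and those of the other 9 genes do.

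Among the endosomal receptors, Tlr8, a sensor of single-stranded RNA breakdown products, was at 84.3, 70.1, 64.8, 63.4 and 67.9 CPM in Ccr2 KO libraries 1 to 5 and at 88.9, 85.0, 98.3, 92.0 and 71.5 CPM in control libraries 1 to 5. All KO libraries but 1 lay below the lowest control library, and that 1, Ccr2 KO 1, lay between control 5 and control 2. Its log2 fold change was −0.31 (SE 0.11; adjusted p = 0.195, edgeR), with an unadjusted p of 0.0148. With limma-voom and quality weights, an alternative fit, the adjusted p was 0.0435.

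Tlr7, which senses single-stranded RNA and guanosine and lies 40599 bases from Tlr8 on chromosome X, was at 126, 112, 95.7, 81.7 and 129 CPM in Ccr2 KO libraries 1 to 5 and at 106, 113, 109.8, 118 and 109.7 CPM in control libraries 1 to 5. The control libraries lay close together and inside the range of the KO libraries. In log2 terms the fold change was −0.03 (95% interval −0.30 to 0.24; adjusted p = 0.936, edgeR), and its sign changed with the scaling. The ratio of Tlr7 to Tlr8 averaged 1.55 ± 0.226 in Ccr2 KO and 1.29 ± 0.159 in control libraries (exact permutation p = 0.0714, adjusted 0.107).

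Tlr9, the sensor of unmethylated CpG DNA, was at 32.4, 94.2, 47.9, 119 and 115 CPM in Ccr2 KO libraries 1 to 5 and at 83.0, 73.1, 134, 148 and 99.5 CPM in control libraries 1 to 5. Ccr2 KO 1 and 3 were lowest, and the other KO libraries lay among the controls. That gave a log2 fold change of −0.40 (SE 0.35; adjusted p = 0.617, edgeR), and −0.88 without Ccr2 KO 4 and 5 (adjusted p = 0.418, edgeR). It was −0.19 without Ccr2 KO 1, −0.25 without control 4 and −0.25 without Ccr2 KO 3. Tlr9 is also known from plasmacytoid dendritic cells. Of 8 tested markers of those cells 0 passed in edgeR, with 1 at an unadjusted p under 0.05 and 0 called by DESeq2 or limma-voom. They summed to 467 to 983 CPM in Ccr2 KO and 661 to 838 CPM in control libraries. Most of that sum was the listed genes Bst2, averaging 348.6 CPM in Ccr2 KO and 339.5 in control, and Lair1, averaging 323.5 and 338.1. The defining gene Siglech was near 0, as given above.

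Tlr3, the sensor of double-stranded RNA, was at 20.3, 33.4, 15.7, 17.3 and 27.7 CPM in Ccr2 KO libraries 1 to 5 and at 27.7, 32.6, 31.5, 29.0 and 17.6 CPM in control libraries 1 to 5. The groups overlapped, with Ccr2 KO 2 the highest of all and control 5 among the lowest. The estimated log2 fold change was −0.28 (SE 0.23; adjusted p = 0.594, edgeR). Xcr1 and Clec9a, which mark conventional type 1 dendritic cells, a population rich in Tlr3, reached at most 1.76 and 0.705 CPM in Ccr2 KO and 1.96 and 0.772 CPM in control libraries. That list of 9 tested markers, which also holds genes that macrophages express, summed to 459.9 to 823 CPM in Ccr2 KO and 584 to 683 CPM in control libraries, with 0 past the threshold or an unadjusted p of 0.05 in edgeR and 0 called by DESeq2 or limma-voom.

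Tlr13, the mouse sensor of bacterial ribosomal RNA, was the 1 gene of the 10 with a positive fold change. It was at 225, 199, 169, 180.4 and 223 CPM in Ccr2 KO libraries 1 to 5 and at 188, 207, 184, 185 and 167 CPM in control libraries 1 to 5. The groups overlapped, with Ccr2 KO 1 and 5 above all controls. The log2 fold change was 0.10 (95% interval −0.13 to 0.32; adjusted p = 0.680, edgeR).

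**Figure D3:**
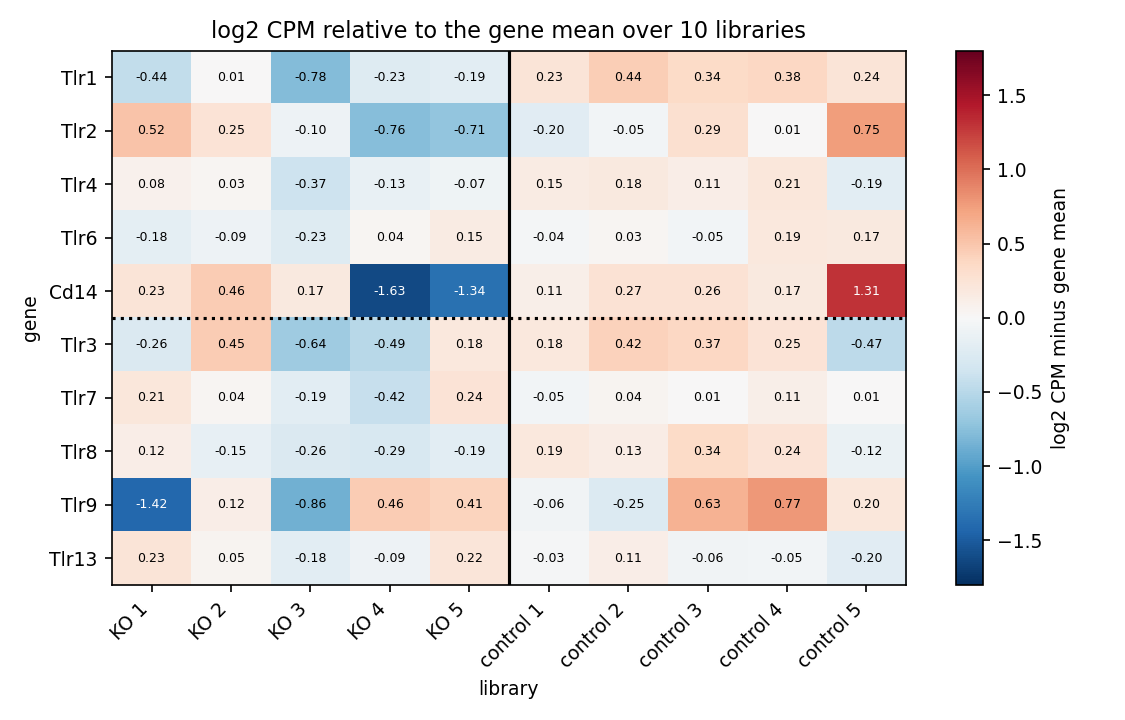
Colour gives log2 CPM minus the gene's mean over all 10 libraries, with genes down the page and Ccr2 KO libraries left of control libraries, and the dotted line parts the surface group above from the endosomal group below. Cd14 reaches −1.63 in Ccr2 KO 4 and 1.31 in control 5, and Tlr9 reaches −1.42 in Ccr2 KO 1.

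The 10 genes were more variable among Ccr2 KO than among control libraries. The coefficient of variation was larger in Ccr2 KO for 10 of 10, and for 67.9% of all 14374 genes. That of Tlr1 was 19.7% in Ccr2 KO and 6.37% in control libraries, that of Tlr7 18.6% in Ccr2 KO and 4.06% in control, and that of Cd14 55.0% in Ccr2 KO and 41.95% in control. For Tlr4 the coefficient was 11.6% in Ccr2 KO and 10.5% in control, and for Tlr8 11.9% in Ccr2 KO and 11.5% in control. The median over all tested genes was 21.1% in Ccr2 KO and 16.6% in control libraries. The control group held the alike pairs described above, and their part in this difference was not tested.

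Levels were compared between genes per length, as TPM, which divides each count by exon length before scaling every library to the same total. Tlr2 was the most abundant of the 9 receptors, at 478 ± 212 TPM in Ccr2 KO and 545 ± 143 TPM in control cells (SD, n = 5 each). Tlr13 followed at 139 ± 26.0 TPM in Ccr2 KO and 124 ± 10.7 TPM in control cells, and ranked below Tlr2 in all 10 libraries. Cd14 stood above all receptors, at 1201 ± 673 TPM in Ccr2 KO and 1829 ± 708 TPM in control cells.

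The middle ranks differed between the groups. In Ccr2 KO cells the order after Tlr13 was Tlr7 at 80.4 ± 19.3 TPM, Tlr9 at 68.8 ± 31.5, Tlr1 at 66.6 ± 11.98 and Tlr8 at 58.8 ± 11.6, and the ranges of neighbouring genes in that stretch overlapped. In control cells Tlr1 came next after Tlr13, at 99.4 ± 8.15 TPM, before Tlr9 at 89.4 ± 29.9, Tlr7 at 78.2 ± 5.27 and Tlr8 at 69.9 ± 10.1, again with overlapping ranges. At the low end were Tlr4 at 23.8 ± 3.98 TPM in Ccr2 KO and 25.9 ± 3.33 in control cells, Tlr6 at 15.2 ± 1.68 in Ccr2 KO and 15.9 ± 1.40 in control cells, and Tlr3 at 13.1 ± 4.07 in Ccr2 KO and 15.3 ± 3.52 in control cells. Tlr4 stood clear of Tlr8 above it and Tlr6 below it in every library of both groups, whereas Tlr6 and Tlr3 overlapped.

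The 4 surface receptors made up 69.3%, 65.3%, 65.2%, 53.4% and 49.7% of the summed TPM of the 9 receptors in Ccr2 KO libraries 1 to 5. In control libraries 1 to 5 they made up 60.8%, 62.6%, 64.0%, 60.0% and 73.4%. Ccr2 KO 4 and 5 were lowest and control 5 was highest, and the groups overlapped. The share averaged 60.6% ± 8.49 in Ccr2 KO and 64.2% ± 5.41 in control libraries (SD, n = 5 each). Tlr2 alone held 49.0% ± 10.8 in Ccr2 KO and 50.7% ± 7.30 in control libraries, so this share follows Tlr2 closely.

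**Figure D4:**
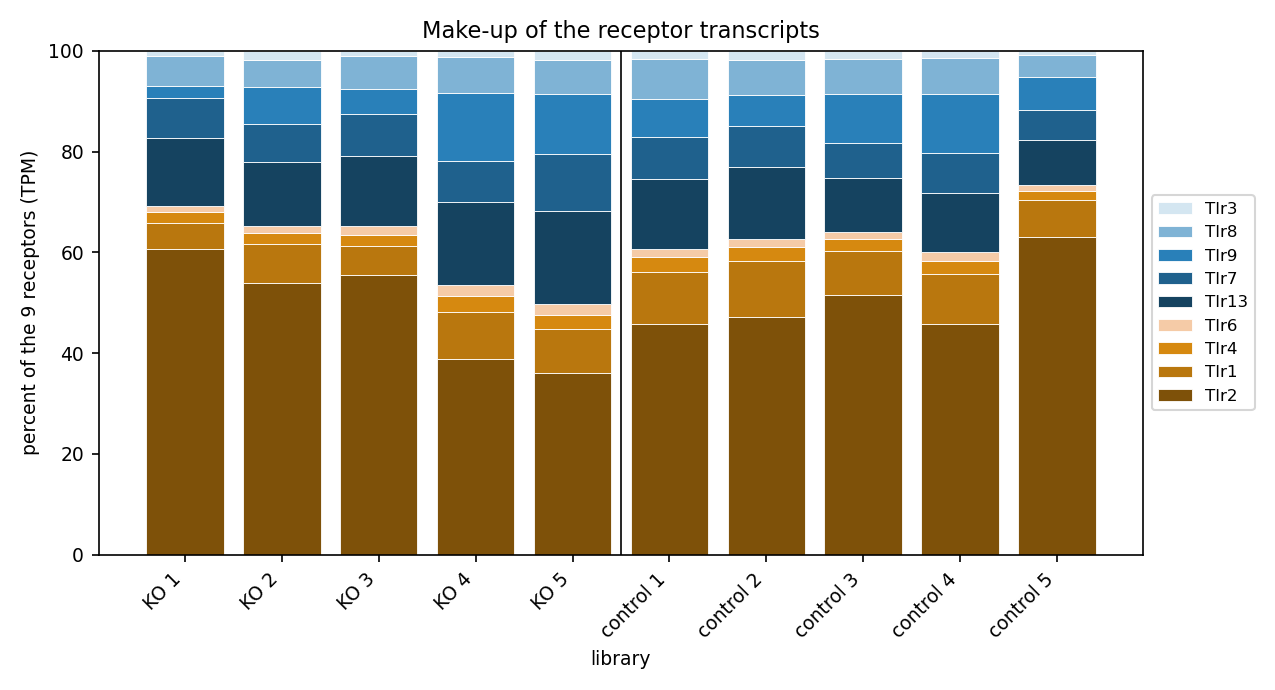
Each bar splits the summed TPM of the 9 receptors in 1 library into percentages, Ccr2 KO libraries left of control libraries, with surface receptors in browns and endosomal receptors in blues. Tlr2 is the widest segment in every bar, and the surface part is smallest in Ccr2 KO 5, at 49.7%.

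The remaining mouse receptors, Tlr5, Tlr11 and Tlr12, did not pass the test. Tlr5, the flagellin receptor, was at 5.82 to 19.3 CPM in Ccr2 KO and 5.70 to 16.4 CPM in control libraries (log2 fold change 0.21; adjusted p = 0.823, edgeR). Tlr11, a profilin receptor of endosomes, was at 0.152 to 2.46 CPM in Ccr2 KO and 1.38 to 2.60 CPM in control libraries (log2 fold change −0.81; adjusted p = 0.534, edgeR). Its partner Tlr12 was at 3.67 to 43.2 CPM in Ccr2 KO and 10.4 to 33.0 CPM in control libraries (log2 fold change 0.02; adjusted p = 0.989, edgeR). Per length, Tlr12 averaged 19.7 TPM in Ccr2 KO and 19.5 TPM in control cells, above Tlr6 and Tlr3. None of the 3 reached an unadjusted p of 0.05 in edgeR or the threshold in DESeq2 or limma-voom.

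Among 9 co-receptors and ligand-binding genes, 0 passed in edgeR, 1 had an unadjusted p under 0.05, and DESeq2 called 1 and limma-voom 0. The lowest p belonged to Lbp, the lipopolysaccharide-binding protein, at 2.24 ± 0.646 CPM in Ccr2 KO and 4.39 ± 1.31 CPM in control cells (log2 fold change −0.97; adjusted p = 0.125, edgeR). Trem1, an amplifier of Toll-like receptor signalling on myeloid cells, averaged 43.7 ± 37.7 CPM in Ccr2 KO and 94.2 ± 56.1 CPM in control cells (adjusted p = 0.456, edgeR).

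Of 19 tested genes for trafficking and processing of the endosomal receptors, 0 passed in edgeR, 2 had an unadjusted p under 0.05, and DESeq2 and limma-voom called 1 each. Unc93b1, the chaperone of that group, was at 979.5 to 1550 CPM in Ccr2 KO and 1375 to 1502 CPM in control libraries (log2 fold change −0.16; adjusted p = 0.580, edgeR). Snx8, a sorting nexin, averaged 207 ± 46.8 CPM in Ccr2 KO and 141 ± 13.9 CPM in control cells (log2 fold change 0.55; adjusted p = 0.121, edgeR). Pld3, a lysosomal nuclease that trims DNA ligands of Tlr9, averaged 437 ± 96.3 CPM in Ccr2 KO and 312 ± 36.8 CPM in control cells (log2 fold change 0.49; adjusted p = 0.137, edgeR).

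Downstream, 0 of 23 adaptors and kinases and 0 of 10 transcription factors passed in edgeR, with 3 and 1 at an unadjusted p under 0.05, 0 and 0 called by DESeq2 and 1 and 0 by limma-voom. Myd88, the adaptor of every Toll-like receptor but Tlr3, was at 183, 144, 135, 164 and 129 CPM in Ccr2 KO libraries 1 to 5 and at 256, 276, 179, 181 and 196 CPM in control libraries 1 to 5. Its groups nearly separated, with Ccr2 KO 1 alone reaching into the control range (log2 fold change −0.53; adjusted p = 0.124, edgeR). The kinase Irak2 had a log2 fold change of −0.43 (adjusted p = 0.180, edgeR). Among the transcription factors, the NF-kB subunits Nfkb2 and Rel had log2 fold changes of −0.37 and −0.63 (adjusted p = 0.198 and 0.356, edgeR).

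Of 17 negative regulators, 1 fell, Sigirr, an orphan receptor that dampens signalling by interleukin-1 and Toll-like receptors. It was at 1.27, 2.38, 1.57, 1.61 and 1.78 CPM in Ccr2 KO libraries 1 to 5 and at 2.79, 5.26, 4.52, 4.85 and 3.62 CPM in control libraries 1 to 5, without overlap. Such separation, in either direction, held for 4.7% of all tested genes. Its log2 fold change was −1.29 (SE 0.24; adjusted p = 0.0270, edgeR), and 10 of 22 alternative fits gave an adjusted p above 0.05, up to 0.277. Among them were those without control 2, 3 or 4 or Ccr2 KO 1, 4 or 5, at 0.0526 to 0.0796 (edgeR). The 17 had a median log2 fold change of −0.08.

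Of 13 cytosolic sensors, 1 fell, Nod2, the receptor for bacterial muramyl dipeptide. It was at 10.8, 15.3, 16.5, 13.1 and 9.71 CPM in Ccr2 KO libraries 1 to 5 and at 19.9, 20.2, 22.3, 22.7 and 27.3 CPM in control libraries 1 to 5, without overlap. Groups did not overlap for 4.7% of all tested genes, in either direction. In log2 terms the fold change was −0.78 (SE 0.16; adjusted p = 0.0436, edgeR), and 13 of 22 alternative fits gave an adjusted p above 0.05, up to 0.319. Among them were those without any single control library or Ccr2 KO 1, 4 or 5, at 0.0722 to 0.103 (edgeR). The 13 sensors had a median log2 fold change of −0.20, with 12 below 0, where 50.5% of all tested genes lay below 0.

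Among 9 tested host-derived ligands, 0 passed in edgeR, with 1 at an unadjusted p under 0.05 and 1 called by each of DESeq2 and limma-voom. Vcan, the proteoglycan versican, averaged 24.7 ± 23.8 CPM in Ccr2 KO and 65.1 ± 21.5 CPM in control cells (adjusted p = 0.232, edgeR), and it is also on the monocyte list. Hsp90aa1, a heat shock protein, had a log2 fold change of −0.65 (adjusted p = 0.374, edgeR).

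Among 16 cytokines and other response genes of these receptors, 0 passed in edgeR, with 2 at an unadjusted p under 0.05 and 0 called by DESeq2 or limma-voom. Their summed level was 2178, 2574, 2562, 452 and 543 CPM in Ccr2 KO libraries 1 to 5 and 2976, 3296, 2324, 2318 and 4469 CPM in control libraries 1 to 5. Ccr2 KO 4 and 5 were lowest and control 5 highest, the same libraries that stood apart for Cd14. Il1b, the inflammatory cytokine interleukin-1 beta, was at 558, 467, 589.5, 59.1 and 40.1 CPM in Ccr2 KO libraries 1 to 5 and at 1202, 1479, 623, 622 and 1577 CPM in control libraries 1 to 5. All KO libraries lay below all controls, a separation seen for 4.7% of all tested genes in either direction. The spread was wide (log2 fold change −1.68; adjusted p = 0.281, edgeR). Ccl5, a chemokine for T cells, had a log2 fold change of −1.09 (adjusted p = 0.244, edgeR).

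**Figure D5:**
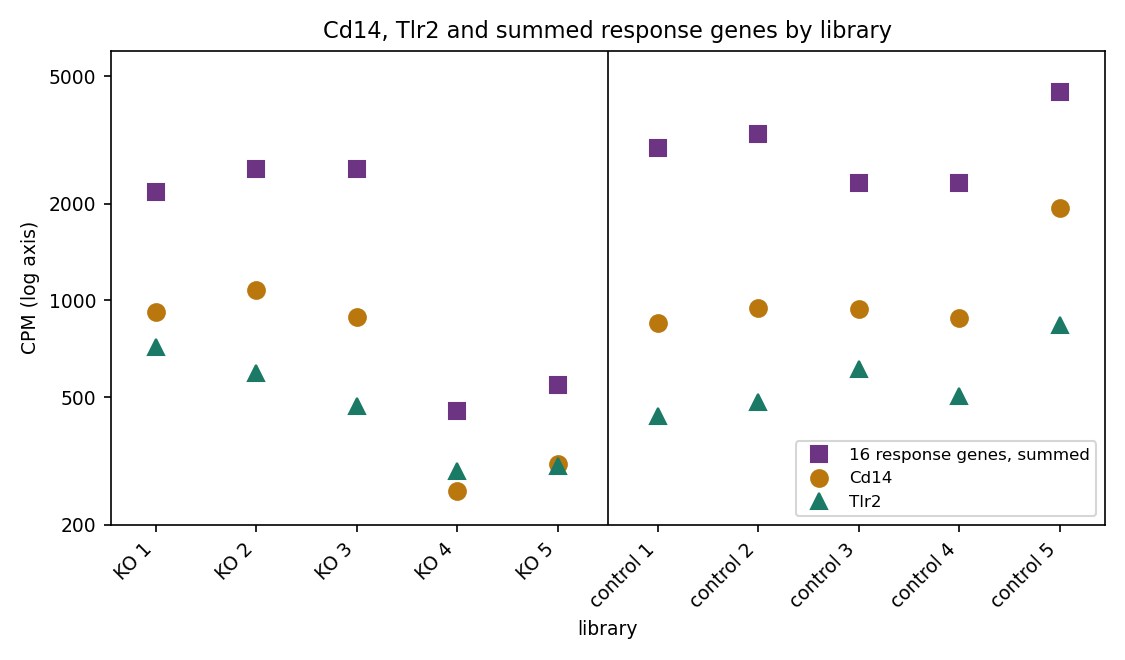
CPM on a log axis is plotted for Cd14, Tlr2 and the sum of 16 response genes in each library, Ccr2 KO left of control. All 3 are lowest in Ccr2 KO 4 and 5 and highest in control 5.

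By the distance between library profiles, over 11397 genes and 10 libraries, the genes most like Tlr1 were Resf1, Zfp971, Zbtb18, Zdhhc13 and F11r, at root mean square distances of 0.133 to 0.171 on the log2 scale. Those most like Tlr8 were Zscan26, Tdrd3, Usp45, Gpatch11 and Zmym5, at 0.0770 to 0.0875. No other Toll-like receptor was among them.

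The promoters of Tlr1, Tlr2 and Tlr9 are shown as those of the gene that passed the test, the most abundant receptor and the endosomal receptor with the widest spread. RefSeq windows (GRCm38.p6) of 250 bases before to 50 after a start site were used for 7 of the 10 genes, 9 windows in all. Tlr4 and Tlr7 had no entry by symbol, and Cd14 was left out of the search. Both strands were searched by letters alone for the Ets core GGAAGT and the longer PU.1 core GAGGAAGT that contains it. The capitals mark the PU.1 core in Tlr1 and Tlr9 and the Ets core in Tlr2, each line being read on the gene's strand.
Tlr1 promoter, chr5:64933509-64933808, minus strand: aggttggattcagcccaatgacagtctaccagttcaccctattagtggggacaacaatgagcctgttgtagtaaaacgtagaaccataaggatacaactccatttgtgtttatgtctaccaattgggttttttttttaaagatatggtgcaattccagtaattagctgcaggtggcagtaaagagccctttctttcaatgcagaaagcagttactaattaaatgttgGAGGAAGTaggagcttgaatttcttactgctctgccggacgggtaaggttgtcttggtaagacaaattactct
Tlr2 promoter, chr3:83841559-83841858, minus strand: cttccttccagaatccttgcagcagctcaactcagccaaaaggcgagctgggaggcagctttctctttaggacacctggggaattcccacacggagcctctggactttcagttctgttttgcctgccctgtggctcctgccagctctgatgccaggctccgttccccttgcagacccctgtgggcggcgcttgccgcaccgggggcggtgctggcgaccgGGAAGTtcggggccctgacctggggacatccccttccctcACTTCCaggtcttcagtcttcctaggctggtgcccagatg
Tlr9 promoter, chr9:106222348-106222647, plus strand: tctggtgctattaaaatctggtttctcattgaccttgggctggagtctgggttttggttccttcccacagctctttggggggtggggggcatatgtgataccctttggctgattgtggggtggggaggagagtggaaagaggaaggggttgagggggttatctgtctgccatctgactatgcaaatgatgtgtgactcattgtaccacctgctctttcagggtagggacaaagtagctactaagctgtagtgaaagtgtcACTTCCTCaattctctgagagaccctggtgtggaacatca
The second RefSeq window of Tlr1, not shown, held neither motif. The PU.1 core was in 2 of the 9 windows, those printed for Tlr1 and Tlr9, and in 3.2% of all 32851 promoters in the table. The Ets core was in 5 of the 9 and in 23.8% of all promoters. These are matches of letters and not sites shown to be bound.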

How the data were processed

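Polyadenylated RNA of FACS-sorted cells was made into directional libraries, per the labels' protocols. The deposited files give the authors' read count for each gene in the layout of STAR, aligned to GRCm39 per the submitters' processing notes. The sources used here give neither STAR's version nor the annotation. Counts on the reverse strand were used, since they made up 96.23% to 96.55% of strand-assigned counts in every library. Unmapped (6.87% to 8.07%), unassigned (3.64% to 5.68%), ambiguous (1.84% to 2.10%) and multimapping reads stayed out of library sizes.

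Tests used edgeR 4.0.16 in R 4.3.3 (filterByExpr with its minimum count of 10, TMM, quasi-likelihood F-test, Benjamini-Hochberg over all genes), checked on simulated data. Alternatives used DESeq2 1.42.0, limma 3.58.1, no filter, no TMM, a replicate block and left-out libraries. TPM used union exon lengths of GENCODE M21 on GRCm38, another build than that of the counts. Pathway genes outside the 10 were named as those past the threshold, up to 4 per list, or else the 2 with the smallest p. Marker lists are given by counts and levels with some of their genes, and Tlr12 completes the family. Unc93b1, Ly96, Cd180, Tlr12, Fn1, Bst2, Lair1, Cd4, Cd68, Dpp4 and Trpm1 were chosen after their values were seen. The members and lists were chosen with earlier results of these data known. Counts of the 10 genes ran from 618 to 80080 per library. Markers of 1 further cell type are not reported here.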

Additional observations from a re-analysis of the deposited data

Results flagged for a closer look

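In 20 groups of 5 libraries, 2 had a library that stood far from the others by Dixon's gap criterion (gap over range above 0.71), where chance gives about 1 in 20 groups. For Cd14, control 5 was at 1950 CPM, and the other control libraries were at 850 to 946 CPM, a gap of 0.912 of the range. For Tlr4, control 5 was at 40.9 CPM, and the other control libraries were at 50.6 to 53.9 CPM, a gap of 0.745 of the range. The same library was thus highest for Cd14 and lowest for Tlr4 among the controls. Without it the log2 fold change of Cd14 was −0.38 (adjusted p = 0.671, edgeR's quasi-likelihood test).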

How the results depend on the processing

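The count of genes past the threshold was 203. It was 800 with DESeq2, 446 with limma-voom and quality weights, 55 with the replicate block, 29 with the alike control pairs summed, 8 with Ccr2 KO 4 and 5 summed as well, and 50 without Ccr2 KO 4 and 5, and ran from 62 to 267 with 1 library left out, falling to 62 to 107 without any 1 of control 1 to 4 or Ccr2 KO 4 or 5. Of the 10 genes, 1 passed. There were 2 with limma-voom (Tlr1 and Tlr8), 0 with no filter, with the replicate block, with pairs summed, with Ccr2 KO 4 and 5 also summed and without those libraries, and 0 to 1 with 1 library left out. The adjusted p of Tlr1 was 0.00319 with DESeq2, 0.0214 with limma-voom, 0.0565 with no filter, 0.104 with the block, 0.249 and 0.375 with the pairs summed without and with Ccr2 KO 4 and 5 summed, and 0.155 without Ccr2 KO 4 and 5. The replicate numbers were not shown to pair libraries, since the correlations of deviations between same-numbered libraries ran from −0.529 to 0.344.

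The direction of Tlr1 did not change in any of 22 alternatives. The log2 fold change of Tlr2 was 0.0579 without Ccr2 KO 4 and 5. That of Tlr7 was 0.0049 with no composition factor, 0.0187 without Ccr2 KO 4 and 5, and −0.0949 to 0.0742 with 1 library left out, positive without Ccr2 KO 3 or 4. That of Tlr5 was −0.0628 to 0.494 with 1 library left out, negative without Ccr2 KO 3. Tlr3 ran from −0.44 to −0.17 with 1 library left out and was −0.18 with pairs summed, Tlr4 was −0.12 and Tlr6 −0.08 without Ccr2 KO 3, Tlr6 was −0.22 without Ccr2 KO 4 and 5, and Tlr13 was 0.05 without Ccr2 KO 1 and 0.15 without Ccr2 KO 3. The ratio of Tlr1 to Tlr6 kept its direction in 13 alternatives chosen after seeing the data, from −0.62 to −0.46 (exact permutation p = 0.0159 to 0.0714). Its log2 difference was −0.49 with pairs summed and −0.50 without Ccr2 KO 4 and 5. Fits with fewer libraries allow fewer arrangements, which raises the smallest possible p, so these p-values cannot be compared between fits. The causes were not tested.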

Other observations

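Cd180, a Toll-like receptor homologue of B cells and myeloid cells, was chosen after its values were seen. It was at 90.6, 355, 85.6, 204 and 292 CPM in Ccr2 KO libraries 1 to 5 and at 121, 97.8, 237, 251 and 144 CPM in control libraries 1 to 5. Ccr2 KO 1 and 3 were lowest, as they were for Tlr9, Tlr11 and Tlr12. Tlr12 was at 3.67, 43.2, 6.54, 30.2 and 24.4 CPM in Ccr2 KO libraries 1 to 5 and at 11.8, 19.9, 33.0, 31.4 and 10.4 CPM in control libraries 1 to 5.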
